A study of Mus musculus with 14 samples.

Results

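Bone morphogenetic protein (BMP) receptors, ligands and Smads were examined in Notch1+ cells and in whole retina of the mouse. The genes were Bmpr1a, Bmpr1b, Bmpr2, Bmp4, Bmp7, Smad1, Smad5, Smad6 and Smad7. A probe was taken for a gene when the transcript identifier printed with it, or its entry in the supplementary tables of the study, named that gene. Probes were found for 8 of the 9 genes, among 16159 genes with a probe in all. These were 13 of the 34312 mouse probes, and no probe was matched to Smad7.

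Each RNA sample was hybridized alone to 1 array of long oligonucleotide probes (Mouse Exonic Evidence Based Oligonucleotide, MEEBO). All mice were of the C57BL/6 strain, and retinas were taken at embryonic day 14 (E14) or at birth, postnatal day 0 (P0). Whole retina and Notch1+ cells had 3 arrays each at E14 and 4 arrays each at P0, named below as replicates 1 to 3 and 1 to 4. Notch1+ cells were selected with a biotinylated antibody against Notch1 and magnetic beads after papain dissociation, retinas of many eyes were pooled in each preparation, and the whole retina still holds its own Notch1+ cells.

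BMPs are secreted dimers that bring together type I and type II receptor kinases on the cell surface. The type II receptor activates the type I receptor, which phosphorylates Smad1 and Smad5, and these enter the nucleus with Smad4. Smad6 and Smad7 restrain the pathway. In the mouse eye Bmp4 is made in the dorsal optic cup and sets dorsal identity, Bmp7 is needed for early eye formation, and the type I receptors support growth and neurogenesis of the retina.

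Of the 9 probes tested, 2 were called between Notch1+ cells and whole retina at P0, against 19.7% of all tested probes. Both were receptor probes, 1 of them of uncertain identity. Between the stages 2 were called in whole retina (against 14.3%) and 2 in Notch1+ cells (against 11.1%), Bmpr1b and Bmp7 each time. Bmpr1a was 2.95-fold higher in P0 Notch1+ cells than in P0 whole retina by the brighter of its probes, and Bmpr1b was 2.34-fold higher in E14 than in P0 whole retina. Bmp7 was not above background on any E14 array and was above it on 6 of 8 P0 arrays. The Smad1, Smad5 and Smad6 probes and the Bmp4 probe passed no test as fitted, though Smad1 and Smad6 were called lower in P0 Notch1+ cells under some other scalings. Intensities below are foreground intensities after background correction and quantile normalization, in arbitrary units that cannot be set against those of another probe. A log2 difference is a difference of group means from 1 limma fit over all 14 arrays, with its SE, and a call means an adjusted p under 0.05 over the 13683 probes that were above background on at least 3 arrays. Of the 13 probes, 9 from all 8 genes were tested. The other 4 (the dimmer probes of Bmpr1b and of Bmpr2) were above background on no array.

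Depth and labels bear on all values that follow. Between 9332 and 13547 mouse probes were above background on an array. The labelled cells had more Notch1 RNA than whole retina at E14 (log2 difference 1.49 ± 0.33, SE, adjusted p = 0.017) and at P0 (1.39 ± 0.29, adjusted p = 0.004). Other listed retinal progenitor genes did not all follow Notch1. At E14, 2 of the 10 listed were called higher and none lower, but 7 had negative differences, with a median of -0.60. At P0, 2 were called higher and none lower, and 4 had negative differences, with a median of 0.13. All E14 arrays were scanned on 1 day, all P0 Notch1+ arrays on another and all P0 whole retina arrays on a further one, so that at P0 and between the stages the scan day and the group cannot be told apart. At P0 the probes called over all genes were 1227 higher and 1467 lower, against 3418 and 1119 when arrays were scaled to 1 median of the probes above background on every array, and 320 and 3778 when scaled to the median of all mouse probes. These scalings moved the median difference of all tested probes at P0 from 0.01 to 0.28 and to -0.37.

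The upstream sequences of both type I receptors, whose probes carried the calls that held best, are shown for orientation. They are RefSeq sequences of build GRCm38.p6 covering 250 bases before and 50 after an annotated transcription start. The arrays measured RNA and not the promoter. Promoter entries were found for 7 of the 8 genes, and Bmpr1b has 3 starts, of which the one farthest upstream is shown. Capitals mark GGGCGG (the GC box), GGCGCC (a GC-rich element bound by Smads) and TGGGAA (the core bound by RBPJ, the DNA-binding partner of Notch), searched on both strands. The Bmpr1a window lies at chr14:34502497-34502796 on the minus strand and the Bmpr1b window at chr3:141982215-141982514 on the minus strand.
Bmpr1a: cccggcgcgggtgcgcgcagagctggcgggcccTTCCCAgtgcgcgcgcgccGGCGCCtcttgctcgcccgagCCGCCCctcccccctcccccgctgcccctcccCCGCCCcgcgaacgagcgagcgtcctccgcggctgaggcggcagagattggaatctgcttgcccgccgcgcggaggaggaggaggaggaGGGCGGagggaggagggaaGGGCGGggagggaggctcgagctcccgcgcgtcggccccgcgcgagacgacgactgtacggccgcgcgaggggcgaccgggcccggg
Bmpr1b: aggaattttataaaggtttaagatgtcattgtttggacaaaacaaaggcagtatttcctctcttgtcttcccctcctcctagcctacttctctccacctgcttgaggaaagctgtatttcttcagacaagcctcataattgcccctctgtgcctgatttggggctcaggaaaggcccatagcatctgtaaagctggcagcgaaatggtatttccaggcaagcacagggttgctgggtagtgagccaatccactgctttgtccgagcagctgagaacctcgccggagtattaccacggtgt
The Bmpr1a window was 79.3% G and C and held 4 GC boxes, 1 GGCGCC and 1 TGGGAA, whereas the Bmpr1b window was 48.3% G and C and held none of them. Of 32851 promoter windows of this length, 35.7% held a GC box, 11.9% GGCGCC and 25.6% TGGGAA.

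Bmpr1a encodes a type I receptor for BMPs. Its brighter probe, mMR030005 (probe 1), was above background on all 14 arrays. Its intensities were 946, 1849 and 2879.8 in E14 Notch1+ cells and 1426, 942 and 1201 in E14 whole retina. In P0 Notch1+ cells it read 2386, 2802, 1631 and 2093, and in P0 whole retina 753, 645, 1040.5 and 597. All 4 P0 Notch1+ arrays were above all 4 P0 whole retina arrays, while the E14 groups overlapped, with 1 of the 3 E14 Notch1+ arrays among the whole retinas. The means were 2228 ± 493 (SD, n = 4) in P0 Notch1+ cells and 759 ± 199 (SD, n = 4) in P0 whole retina, a log2 difference of 1.56 ± 0.31 (SE, adjusted p = 0.003). At E14 the log2 difference was 0.55 ± 0.35 (adjusted p = 0.452).

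The change of this difference from P0 to E14 was -1.01 ± 0.47 (adjusted p = 0.279), so that a difference between the stages was not shown for Bmpr1a. From the highest mean to the lowest, the groups ran P0 Notch1+ cells, E14 Notch1+ cells (1892 ± 968, SD, n = 3), E14 whole retina (1189.6 ± 242, SD, n = 3) and P0 whole retina. No difference between neighbors in this order was called: the adjusted p was 0.532 between the Notch1+ groups, 0.452 within E14 and 0.207 between the whole retinas. The P0 difference stayed called under every alternative but 1. With arrays scaled to the median of all mouse probes it was 0.81 (adjusted p = 0.094), or 1.18 relative to the median of all probes.

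**Figure D1:**
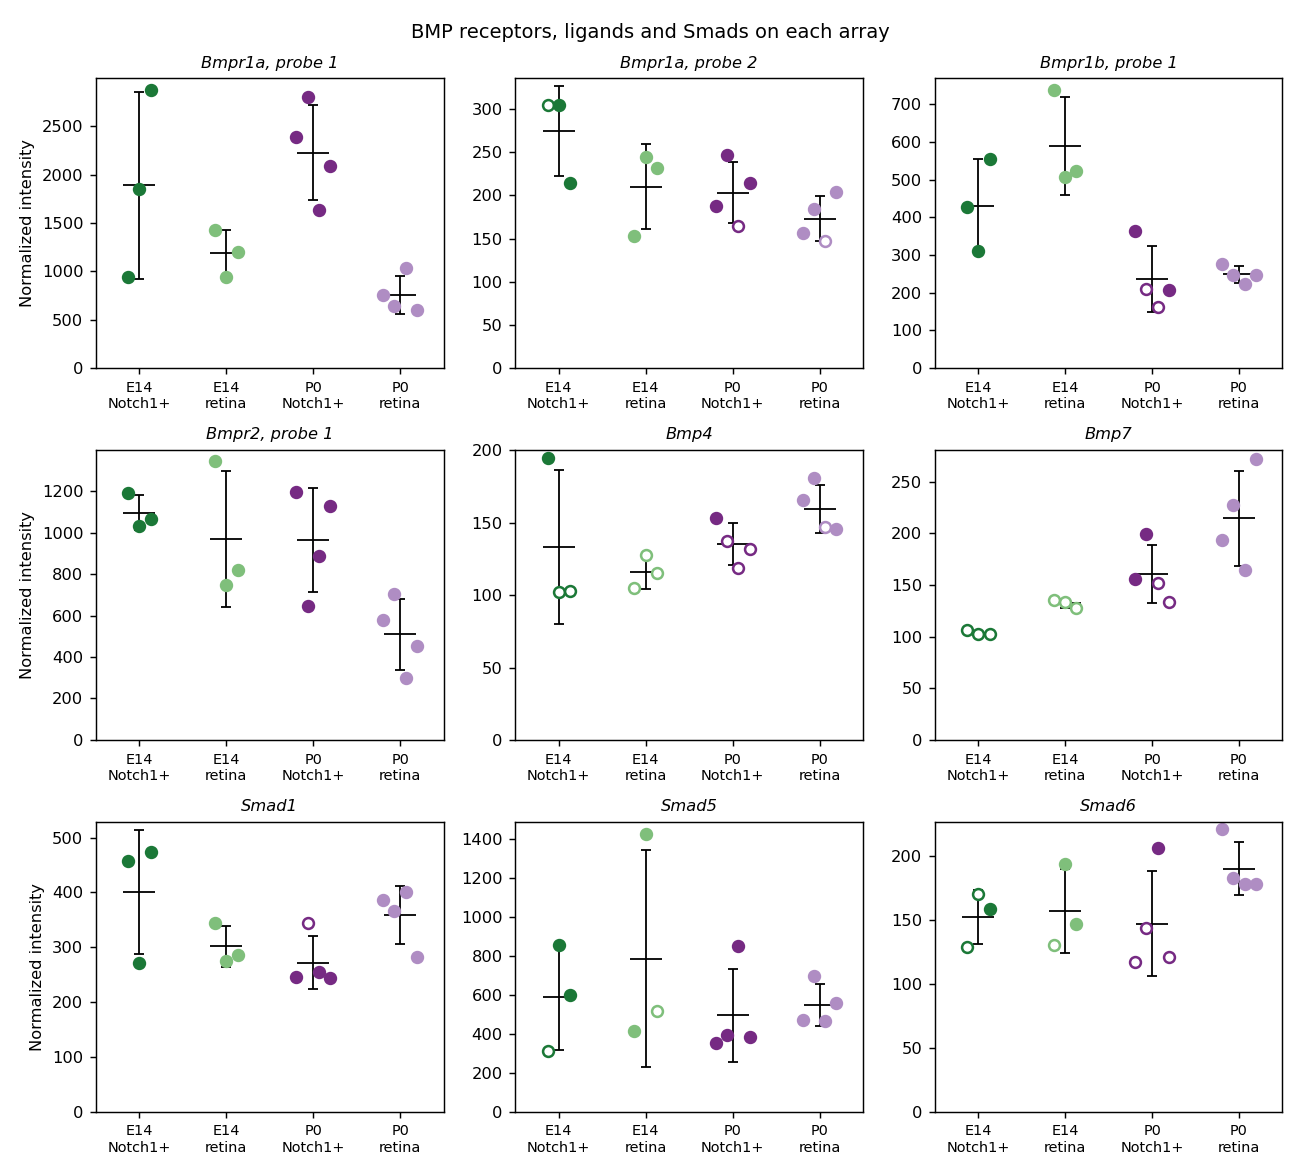
Normalized intensity (y axis, arbitrary units, 1 scale per panel) of the 9 tested probes in the 4 groups (x axis). Each point is 1 array, filled where the probe was above background and open where it was not, and black bars give the mean and SD. The 4 P0 Notch1+ arrays sit between 1631 and 2802 for Bmpr1a probe 1, above the 4 P0 whole retinas at 597 to 1040.5.

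The second Bmpr1a probe, mMC020193, names the same transcript but did not follow the first. It was above background on 11 arrays. It read 305, 304 and 215 in E14 Notch1+ cells and 153, 245 and 232 in E14 whole retina. At P0 it read 188, 246, 164 and 214 in Notch1+ cells and 157, 184, 147 and 204 in whole retina. The groups overlapped at both stages. Its P0 difference was 0.23 ± 0.20 (adjusted p = 0.473) and its E14 difference 0.40 ± 0.23 (adjusted p = 0.395), and it was called in no comparison. Scaling to the median or the 75th percentile of the probes above background on every array turned the P0 difference into a call (0.61 and 0.70, adjusted p = 0.045 and 0.024, or 0.33 for both relative to the median of all probes). Over the 14 arrays the log2 values of both Bmpr1a probes correlated with r = 0.19 (Spearman's rho 0.23). Here r describes arrays that share groups and scan days, and it has no test.

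Bmpr1b encodes the other type I receptor listed. Its brightest probe, mMR029574 (probe 1), was above background on 12 arrays. In E14 Notch1+ cells it read 428, 309 and 556, and in E14 whole retina 739, 506 and 523. The P0 values were 363, 210.2, 162 and 208 in Notch1+ cells and 276, 248, 223 and 247 in whole retina. All E14 whole retinas were above all P0 whole retinas, whereas 1 P0 Notch1+ array, replicate 1, lay among the E14 Notch1+ arrays. Bmpr1b was thus higher at E14 than at P0 in whole retina (589 ± 129.9 against 249 ± 21.8, SD, n = 3 and 4, log2 difference 1.23 ± 0.27, adjusted p = 0.008), and this call held under every alternative.

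In Notch1+ cells the stage difference of Bmpr1b was 0.90 ± 0.27 (adjusted p = 0.046; 431 ± 123 against 236 ± 87.8, SD, n = 3 and 4). This call was lost under 8 of the other settings and on leaving out any of 11 of the 14 arrays; without E14 Notch1+ replicate 3 the difference was 0.69 (adjusted p = 0.155). Between Notch1+ cells and whole retina Bmpr1b did not pass the test at E14 (-0.47 ± 0.28, adjusted p = 0.417) or at P0 (-0.14 ± 0.25, adjusted p = 0.739). The order of the means was E14 whole retina, E14 Notch1+ cells, P0 whole retina and P0 Notch1+ cells, in which no difference between the neighbors within a stage was called.

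The other Bmpr1b probes, mMC014882 and mMC022924, were above background on no array and lay between 52.8 and 99.6. They cannot give a fold. Over the 14 arrays their log2 values correlated with those of probe 1 with r = 0.80 and 0.79, which has no test. At background level their readings are no separate support for any comparison of Bmpr1b.

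Bmpr2 encodes the type II receptor that pairs with both. The 3 probes under this name did not give 1 picture. The bright one, mMC002197 (probe 1), carries no transcript identifier. It has the symbol from the supplementary tables of the study alone, where its gene number is not the current number of Bmpr2, so that its identity is uncertain. Both probes with the Bmpr2 transcript identifier, mMA033733 and mMC004505, were above background on no array, at 90.9 to 130.1 and 61.6 to 87.1.

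The uncertain probe read 1192, 1031 and 1064 in E14 Notch1+ cells and 1346, 746 and 819.9 in E14 whole retina. At P0 the readings were 1198, 647, 889 and 1130.3 in Notch1+ cells and 578, 704, 301 and 453 in whole retina. P0 whole retina was the low group, though its replicate 2 lay above P0 Notch1+ replicate 2. Its P0 difference was 0.95 ± 0.28 (adjusted p = 0.028; 966 ± 251 against 509 ± 173, SD, n = 4 each). That call was lost on leaving out P0 Notch1+ replicate 1 or 4 or P0 whole retina replicate 3 or 4, one at a time, where the smallest difference was 0.72 (adjusted p = 0.079, without P0 whole retina replicate 3). It was also lost under 6 of the other settings. Among these were the scaling to the median of all mouse probes (0.26, adjusted p = 0.566, or 0.63 relative to the median of all probes) and the array mark named re-dip as a covariate (0.71, adjusted p = 0.264), a mark that 1 of the 4 P0 Notch1+ arrays and all P0 whole retinas carry. Between the stages the whole retinas did not overlap, and the difference of 0.95 ± 0.30 had an adjusted p of 0.050, just above the threshold.

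**Figure D2:**
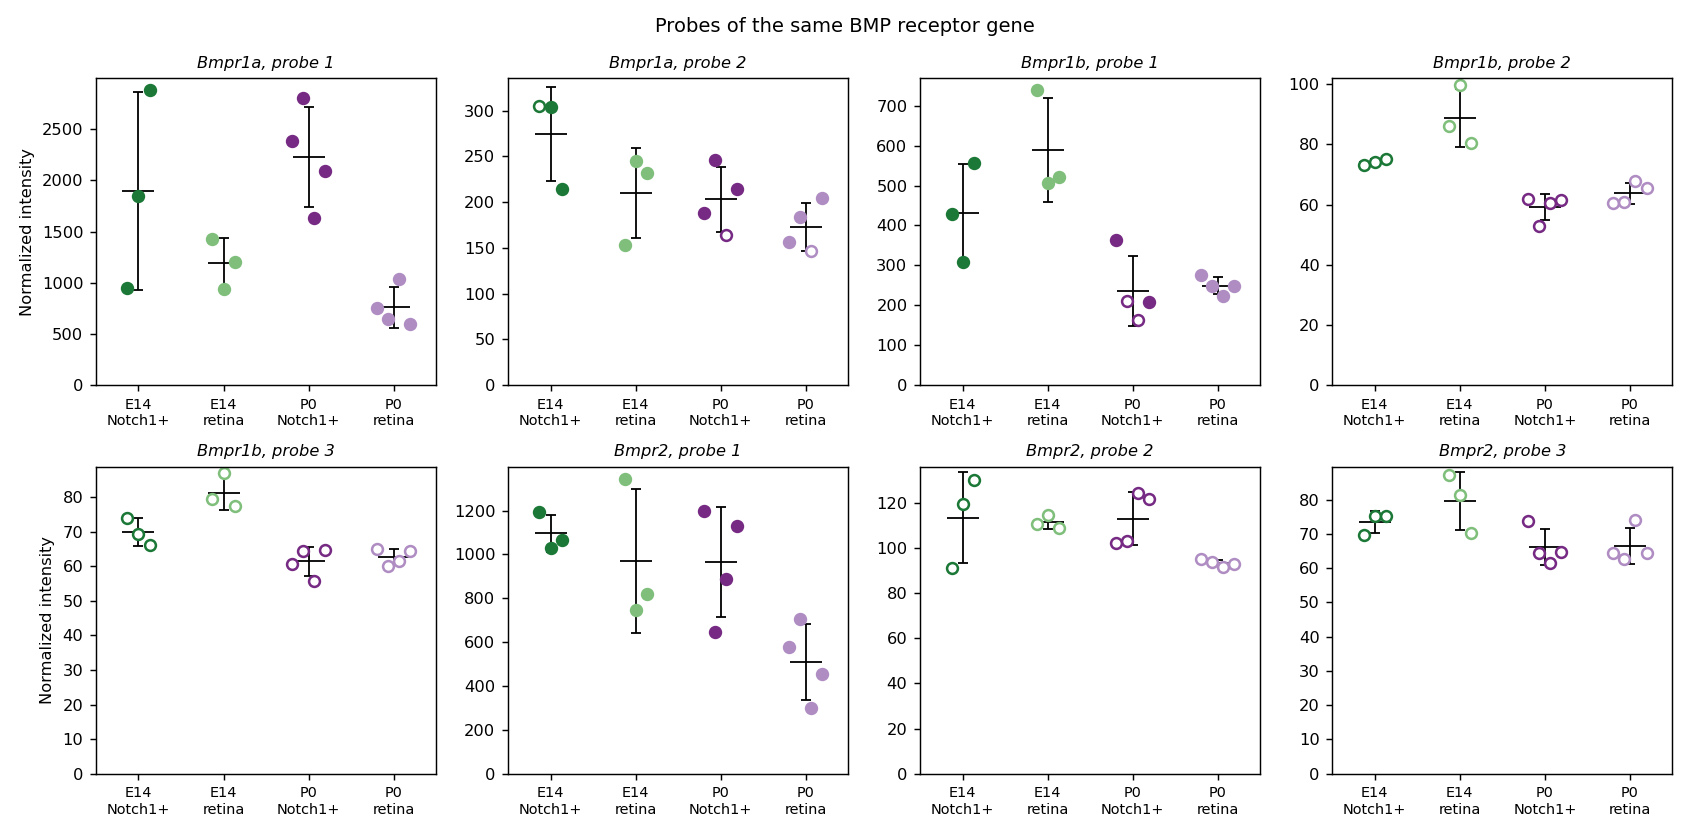
Normalized intensity (y axis, arbitrary units) of every probe of Bmpr1a, Bmpr1b and Bmpr2 in the 4 groups (x axis); points are arrays, filled where above background and open where not, and bars give the mean and SD. Bmpr1a probe 2 shows no P0 gap like that of probe 1, and probes 2 and 3 of Bmpr1b and of Bmpr2 have open points only.

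Both calls of the listed genes at P0 were thus on receptor probes, Bmpr1a probe 1 and the uncertain Bmpr2 probe, while Bmpr1b was called between the stages. Of the 9 tested probes, 2 were called at P0, both higher in Notch1+ cells, against 19.7% of all tested probes in either direction and 8.97% in this direction. The member calls changed with the scaling, though the differences of both receptor probes stayed positive under every alternative. With arrays scaled to the median of all mouse probes neither receptor probe was called, and 3 members were called lower in Notch1+ cells, namely Smad1, Bmp7 and Smad6, with none higher. With the 75th percentile of all mouse probes, and in the value table of the authors, the calls were Bmpr1a probe 1 higher and Smad1 lower. At E14 none of the 9 was called (0 at an unadjusted p under 0.05; 1, Bmp7, by the methods' t-test after Benjamini-Hochberg adjustment), against 5.91% of all tested probes (2.67% higher and 3.24% lower). The median difference of the 9 probes was 0.14 at E14 and -0.23 at P0, beside 0.01 over all tested probes at each stage. For the change of the difference between the stages, 0 of the 9 were called by limma, with 2 at an unadjusted p under 0.05 (Bmpr1a probe 1 and Smad1), against 2.47%. Across the 4 groups, 4 of the 9 were called (Bmpr1a probe 1, Bmpr1b, the uncertain Bmpr2 probe and Bmp7) against 34.3% of all tested probes.

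Bmp7 encodes a BMP ligand. Its probe, mMC009648, was above background on no E14 array, on 2 of 4 arrays of P0 Notch1+ cells and on 4 of 4 of P0 whole retina. It read 106, 102 and 102 in E14 Notch1+ cells and 135, 134 and 127 in E14 whole retina. At P0 it read 156, 199.6, 152 and 133 in Notch1+ cells and 194, 228, 165 and 272 in whole retina. Every P0 reading lay above every E14 reading of the same kind of sample. Because the E14 groups were not above background, the difference is given as a bound, set by the lowest value above background on each E14 array or by the reading of the probe where that was higher. This bound leaves out the SE and the background of the spot itself. Here and below, a fold given as at least some value is therefore not a strict minimum.

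For P0 over E14 Bmp7 was at least 1.56-fold higher in whole retina (adjusted p = 0.027) and at least 1.09-fold higher in Notch1+ cells (adjusted p = 0.048). The probe passed the filter through P0 arrays alone, the stage where it was high, so these adjusted p are no separate support. Both calls were also weak. In whole retina it was lost on leaving out any E14 whole retina array or P0 whole retina replicate 2 or 4 (fitted values of -0.55 to -0.69, adjusted p of 0.060 to 0.084), and in Notch1+ cells on leaving out any of 11 arrays (fitted values of -0.50 to -0.64, adjusted p of 0.055 to 0.118). Between P0 Notch1+ cells and P0 whole retina the difference was -0.41 ± 0.17 (adjusted p = 0.110). It was called with arrays scaled to the median of all mouse probes (-0.65, adjusted p = 0.013, or -0.28 relative to the median of all probes), with cyclic loess (-0.52, adjusted p = 0.0498) and without P0 whole retina replicate 3 (-0.53, adjusted p = 0.049).

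Bmp4 encodes the dorsal BMP ligand. Its probe, mMC017480, was above background on 5 arrays: E14 Notch1+ replicate 1, P0 Notch1+ replicate 1 and P0 whole retina replicates 1, 2 and 4. The readings were 194, 102 and 103 in E14 Notch1+ cells and 105, 128 and 115 in E14 whole retina. They were 154, 137, 119 and 132 in P0 Notch1+ cells and 165, 181, 147 and 146 in P0 whole retina. The groups overlapped within each stage, and the E14 Notch1+ mean of 133 ± 52.9 (SD, n = 3) rested on 1 array. No comparison was called, with adjusted p from 0.172 to 0.835. P0 whole retina was at least 1.18-fold above E14 whole retina, where the probe was above background on no array, at an adjusted p of 0.172. The probe passed the filter only with the P0 whole retinas, the group where it was high, so this difference is no separate support.

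Between the stages, 2 of the 9 probes were called in Notch1+ cells (Bmpr1b higher at E14 and Bmp7 lower), against 11.1% of all tested probes (5.17% higher and 5.92% lower). Likewise 2 of the 9 were called in whole retina (again Bmpr1b higher at E14 and Bmp7 lower), against 14.3% (6.61% higher and 7.67% lower). The median differences of the 9 probes were 0.22 and 0.26, beside 0.01 and 0.00 over all tested probes. Each of these comparisons shares its arrays with the comparisons within a stage. Groups without overlap were found for 4 of the 9 probes between the whole retinas (Bmpr1b, the uncertain Bmpr2 probe, Bmp4 and Bmp7), against 29.2% of all tested probes. Of these, Bmp4 and Bmp7 passed the filter only with P0 arrays, the stage where they were high, so they add no separate support. In each of the other comparisons the groups of 1 probe did not overlap: Bmp7 at E14 (25.6% of all tested probes) and between the Notch1+ groups (24.1%), and Bmpr1a probe 1 at P0 (23.6%). The same limit holds for Bmp7 between the Notch1+ groups.

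**Figure D3:**
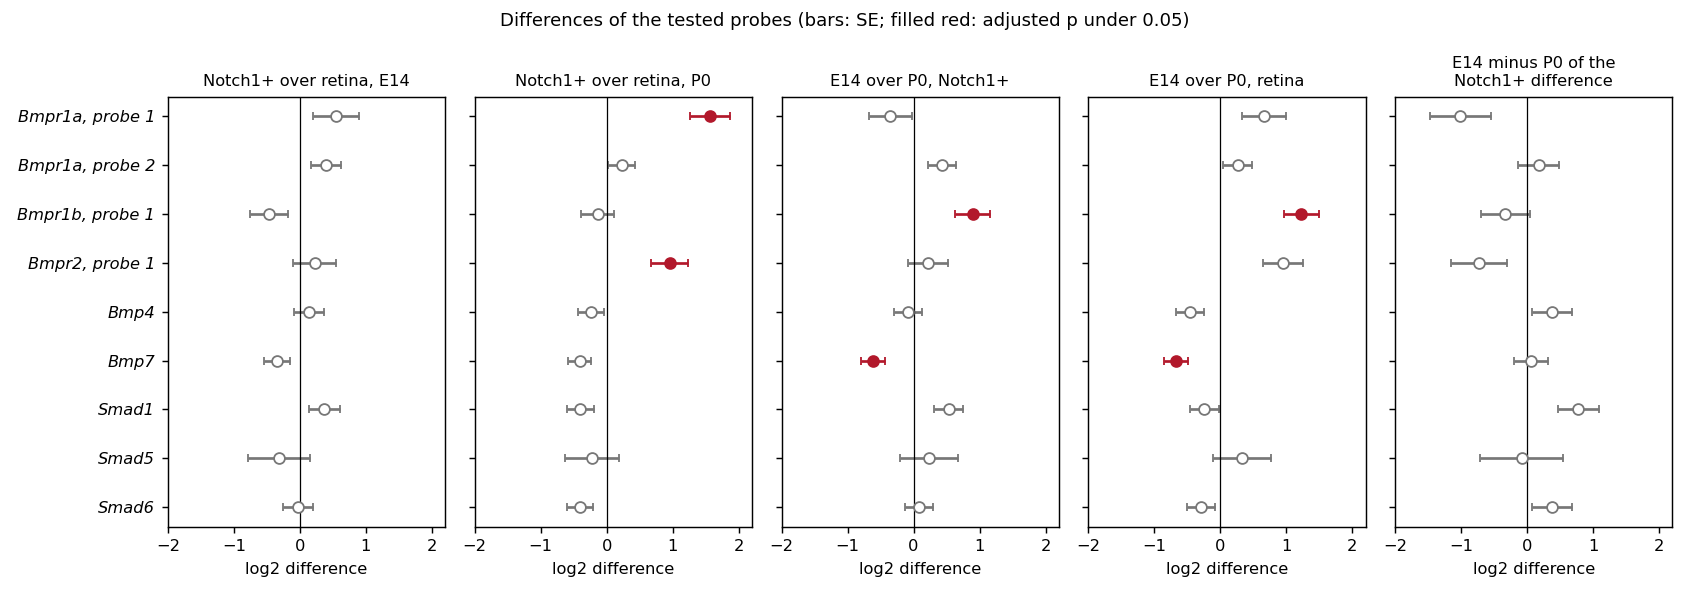
Log2 difference (x axis) of each tested probe (rows) in the 5 comparisons (panels), with bars of 1 SE; filled red points have an adjusted p under 0.05. The filled points are Bmpr1a probe 1 (1.56) and the Bmpr2 probe (0.95) at P0, and Bmpr1b and Bmp7 in both stage comparisons.

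Smad1 encodes a Smad that BMP receptors phosphorylate. Its probe, mMC018812, was above background on 13 arrays. It read 458, 271 and 474 in E14 Notch1+ cells and 344, 275 and 286 in E14 whole retina. At P0 it read 247, 344, 254 and 244 in Notch1+ cells and 385, 366, 401 and 282 in whole retina. The groups overlapped in all 4 comparisons, and P0 Notch1+ replicate 2, the one array where the probe was not above background, stood apart from the other 3. The differences from whole retina were 0.37 ± 0.24 at E14 (adjusted p = 0.442) and -0.40 ± 0.20 at P0 (adjusted p = 0.188), and their difference was 0.77 ± 0.31 (unadjusted p = 0.026, adjusted p = 0.211). The P0 difference was called with arrays scaled to the median (-0.92, adjusted p = 0.006, or -0.55 relative to the median of all probes) or the 75th percentile (-0.60, adjusted p = 0.043) of all mouse probes and in the value table of the authors (-0.85, adjusted p = 0.039), while it was 0.061 with a term for the re-dip mark.

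Smad5 encodes the second such Smad. Its probe, mMC009547, was above background on 12 arrays and had the widest spread. The readings were 313, 854 and 597 in E14 Notch1+ cells and 414, 1427 and 518 in E14 whole retina. In P0 Notch1+ cells they were 350.5, 393, 852 and 382, and in P0 whole retina 468, 696, 465 and 557. E14 whole retina replicate 2 and P0 Notch1+ replicate 3 were high within their groups. With SEs of 0.41 to 0.62, the log2 differences of -0.31 to 0.32 did not pass the test (adjusted p from 0.679 to 0.966).

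Smad6 encodes an inhibitory Smad that BMP signals induce. Its probe, mMC008700, was above background on 8 arrays, among them all 4 of P0 whole retina. It read 129, 171 and 158 in E14 Notch1+ cells and 130.4, 194 and 147 in E14 whole retina. The P0 readings were 117, 144, 207 and 122 in Notch1+ cells and 221, 183, 179 and 179 in whole retina. P0 Notch1+ replicate 3 was the only array of its group above background and lay among the whole retinas. The P0 difference was -0.40 ± 0.20 (adjusted p = 0.179). Without P0 Notch1+ replicate 3 it was -0.58 (adjusted p = 0.044), and with arrays scaled to the median of all mouse probes -0.61 (adjusted p = 0.047, or -0.24 relative to the median of all probes).

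The other receptors and coreceptors were looked at through lists of pathway genes, with 1 probe per gene. Of the 7 genes of BMP type I and II receptors, 5 were tested. At P0 3 of them were called higher in Notch1+ cells and none lower, against 8.97% of all tested probes called higher. Beside Bmpr1a and the uncertain Bmpr2 probe this was Acvr2b, a type II receptor for activins and BMPs, at 1756 ± 451 against 929.5 ± 389.6 (SD, n = 4 each; 1.02 ± 0.33, adjusted p = 0.044); its groups overlapped, and the call was lost on leaving out any of 10 arrays. The median of the 5 was 0.95 at P0 and 0.46 at E14, where none was called. With arrays scaled to the median of all mouse probes the P0 median was 0.25 (0.62 relative to all probes) and none of the 5 was called. Acvrl1, the type I receptor of endothelial cells, was above background on no array. Of 7 coreceptors 3 were tested, and Rgma, a coreceptor that binds BMPs directly, was above its P0 level in E14 Notch1+ cells (0.98 ± 0.27, adjusted p = 0.036), a call lost on leaving out any of 5 arrays and under 6 of the other settings. Tgfbr3, a coreceptor for several ligands of the family, was at least 1.64-fold higher at E14 than at P0 in whole retina (adjusted p = 0.001). Its probe was above background on the 3 E14 whole retinas alone. It thus entered the test only through the group where it was high, and the adjusted p is no separate support. Hjv and Bambi were above background on no array.

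Most BMP ligands and antagonists were too dim to measure. Of 20 BMP and GDF ligands 19 had a probe and 4 were tested, while 13 were above background on no array: Bmp2, Bmp3, Bmp5, Bmp6, Bmp8a, Bmp8b, Bmp10, Gdf2, Gdf3, Gdf5, Gdf6, Gdf7 and Gdf15. Gdf10, a ligand of this family, was called lower in P0 Notch1+ cells than in P0 whole retina (96.8 ± 12.9 against 138 ± 2.6, SD, n = 4 each, adjusted p = 0.013). Its probe was above background on 3 P0 whole retinas alone, and so entered the test only through the group where it was high. The Notch1+ arrays were not above background, and the bound on the fold was under 1. The sign also turned when arrays were scaled to the median (0.13) or the 75th percentile (0.21) of the probes above background on every array (-0.16 for both relative to the median of all probes).

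Among 16 extracellular antagonists, which bind BMPs and keep them from their receptors, 4 were tested. At P0, 3 were called higher in Notch1+ cells and none lower, with a median of 0.56, against 8.97% of all tested probes called higher. With arrays scaled to the median of all mouse probes the median was -0.07 (0.30 relative to all probes) and none was called. Chrd (chordin) was at 203 ± 11.6 against 127 ± 17.2 (SD, n = 4 each, log2 difference 0.68 ± 0.16, adjusted p = 0.010). Its probe was above background on all 4 of these Notch1+ arrays but on only 1 of the 4 whole retinas, so the size of the difference is uncertain. Nbl1 was called at P0 (0.56 ± 0.17, adjusted p = 0.034), a call lost on leaving out any of 5 arrays and under 7 of the other settings (0.064 with the median of all mouse probes), and at E14, where Notch1+ cells exceeded whole retina at least 1.85-fold (249 ± 21.5 against 117 ± 3.5, SD, n = 3 each, adjusted p = 0.005) and no E14 whole retina was above background. Fstl1, a follistatin-like secreted protein, was higher at P0 (0.56 ± 0.18, adjusted p = 0.040), a call lost on leaving out any of 9 arrays and a sign that turned (-0.20, or 0.17 relative to the median of all probes) when arrays were scaled to the median of all mouse probes. The antagonists Nog, Chrdl1, Chrdl2, Grem1, Fst, Fstl3, Cer1, Sost, Sostdc1 and Bmper were above background on no array.

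Of the 8 Smads 6 were tested, and none was called between Notch1+ cells and whole retina at either stage. At P0 2 of them were called higher with either scaling to the probes above background on every array, and 2 lower with the median of all mouse probes. Smad2, which carries TGF-beta and activin signals, was higher in E14 than in P0 whole retina (649 ± 104 against 163 ± 20.5, SD, n = 3 and 4; 1.99 ± 0.33, adjusted p = 0.002). Smad3, its partner in that arm, was higher in Notch1+ cells of E14 than in those of P0 (279 ± 61.0 against 165 ± 7.4, SD, n = 3 and 4; 0.74 ± 0.16, adjusted p = 0.010). The Smad3 call was lost under 4 of the other settings. Smad4, shared by both arms, did not pass any test. Smad9 was above background on no array. Of 14 Smad regulators 10 were tested; Ctdsp2, a phosphatase that acts on Smads, was higher in P0 Notch1+ cells than in P0 whole retina (1.74 ± 0.50, adjusted p = 0.026) and than in E14 Notch1+ cells (1.86 in size, fitted as -1.86 ± 0.54 for E14 over P0, adjusted p = 0.043), and Ctdspl, a related phosphatase, was 2.01-fold higher in the E14 than in the P0 Notch1+ arrays (adjusted p = 0.045). The P0 call of Ctdsp2 was lost on leaving out P0 Notch1+ replicate 1 or P0 whole retina replicate 3 (1.19, adjusted p = 0.055) and under 5 of the other settings. Its stage call was lost on leaving out any of 9 arrays and under 9 settings (smallest size -1.05, adjusted p = 0.227), and that of Ctdspl on leaving out any of 12 arrays (0.72 without E14 Notch1+ replicate 2, adjusted p = 0.177) and under 9 settings. Smurf1, a ubiquitin ligase for Smads, and Skil, a Smad corepressor, were above background on no array.

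Of 9 tested BMP target genes none was called between Notch1+ cells and whole retina, with medians of -0.18 at E14 and -0.24 at P0 and with 0 and 2 at an unadjusted p under 0.05. The Id genes, which encode dominant inhibitors of bHLH factors and are direct targets, had P0 differences of -0.08 for Id1, -0.32 for Id2, -0.66 for Id3 and -0.43 for Id4 (adjusted p from 0.133 to 0.935). Msx1 and Msx2, homeobox targets of BMPs, were at 0.15 and -0.24 (adjusted p = 0.594 and 0.419). At P0 these counts moved with the scaling, to 2 higher with either scaling to the probes above background on every array and to 4 lower with the median of all mouse probes. Only Atoh8, a bHLH gene, was called in any comparison, lower in the E14 than in the P0 Notch1+ arrays (-0.87 ± 0.26, adjusted p = 0.047), and leaving out any of 11 arrays ended that call.

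Some genes of dorsal and ventral retina, whose pattern BMP signals set, were lower in Notch1+ cells at E14. Of 10 tested genes 3 were called lower and none higher, with a median of -0.75, beside 3.24% of all tested probes called lower. They were Tbx5, a dorsal T-box factor (223 ± 49.1 against 640.1 ± 106, SD, n = 3 each; -1.53 ± 0.28, adjusted p = 0.006), Aldh1a3, the ventral retinoic acid enzyme (234 ± 70.9 against 719 ± 211, SD, n = 3 each; -1.62 ± 0.27, adjusted p = 0.003), and Vax2, a ventral homeobox factor (-1.47 ± 0.40, adjusted p = 0.046), whose call was lost on leaving out any of 12 arrays. The E14 call of Tbx5 was lost under 1 of the other settings and that of Aldh1a3 under 2. At P0 none of the 10 was called (1 at an unadjusted p under 0.05, and a median of -0.03). Between the whole retinas Tbx5 (1.59), Aldh1a3 (2.30) and Efnb2 (1.31), a dorsal ephrin, were higher at E14, and Tbx2 (-1.13), a dorsal T-box factor, was lower. In Notch1+ cells Efnb2 was again higher at E14 (0.95, adjusted p = 0.025, lost on leaving out any of 4 arrays), and Efnb1 (-1.13), Tbx2 (-1.01) and Ephb3 (-0.88) were lower.

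In the TGF-beta and activin arm 6 of 10 genes were tested. Inhbb, the activin beta B subunit, was lower in P0 Notch1+ cells than in P0 whole retina (158 ± 42.0 against 374 ± 84.7, SD, n = 4 each, log2 difference -1.25 ± 0.21, adjusted p = 0.001). Its probe was above background on 1 of these 4 Notch1+ arrays and on all 4 whole retinas, so the size of the difference is uncertain. It passed the filter only with these whole retinas, the group where it was high, and the adjusted p is no separate support. In whole retina Inhbb was at least 2.73-fold higher at P0 than at E14, where it was not above background. The probe thus entered the test only through P0, where it was high. Tgfb1 and Inhba were above background on no array. Of 6 BMP proteases 2 were tested and none was called. Tll1 and Tll2 were above background on no array.

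**Figure D4:**
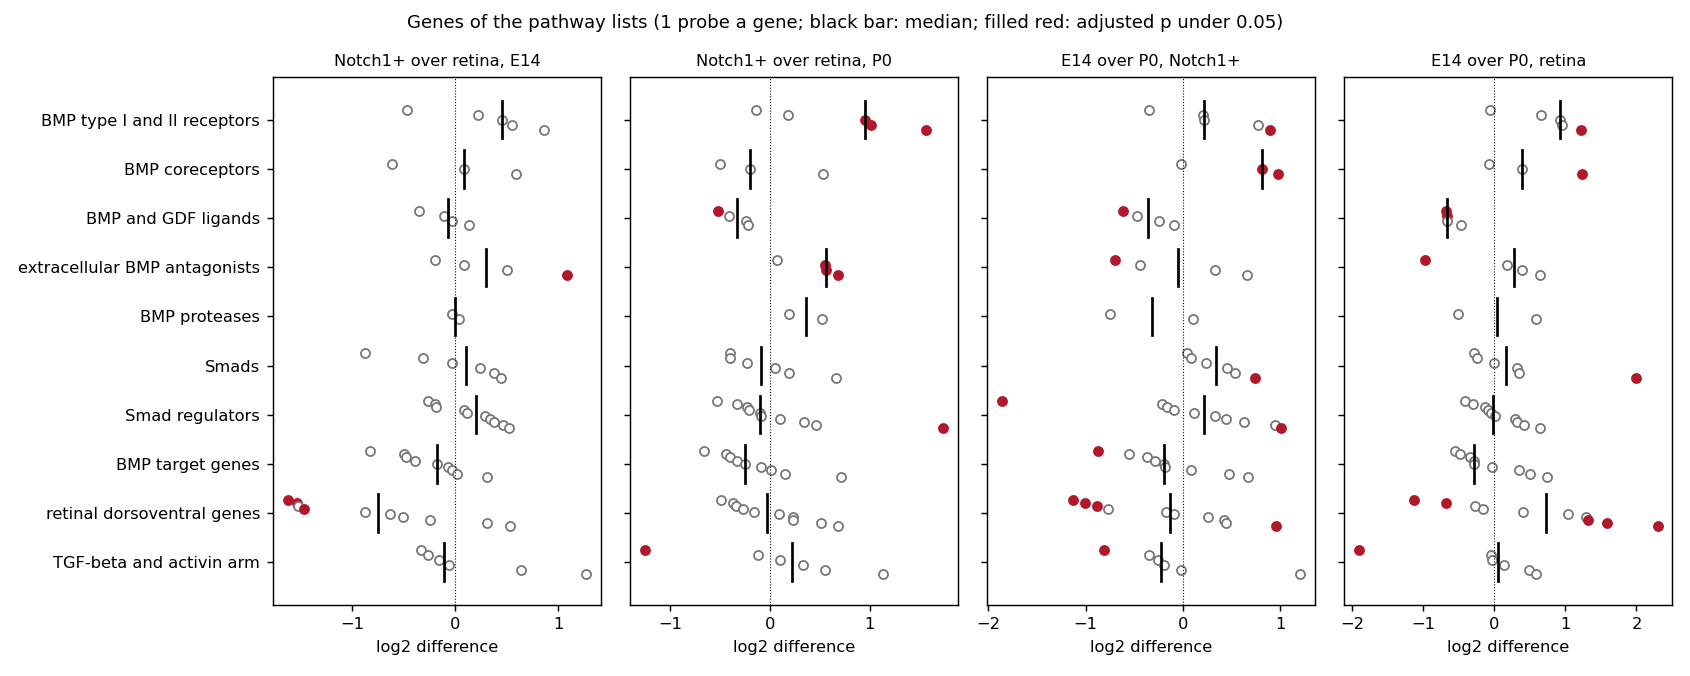
Log2 difference (x axis) of the tested genes of each pathway list (rows, 1 probe per gene) in 4 comparisons (panels); filled red points have an adjusted p under 0.05 and black bars mark the list's median. At P0 the red points of receptors and of antagonists lie right of 0, and at E14 those of dorsoventral genes lie left of it.

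Markers of other cells moved with the same groups. Over all tested probes 8.97% were called higher and 10.7% lower in Notch1+ cells at P0, and 2.67% and 3.24% at E14. At P0, 3 of 9 tested vascular endothelial genes were higher in Notch1+ cells (Pecam1, Cldn5 and Tie1), and the summed intensity of the 10 endothelial genes was 3692 to 7266 in P0 Notch1+ cells against 2390.4 to 3022 in P0 whole retina. The endothelial receptor Tek was above background on no array. At E14 the endothelial sum was 1722 to 4393 against 1477 to 1579, with none of the 9 called. Ganglion cell genes were lower in Notch1+ cells at P0 (7 of 8 tested, sums of 984 to 1257 against 7014 to 10676) and at E14 (6 of 8, 2146 to 2958 against 12597 to 20260.4). Immediate early genes, which rise within minutes of stimulation, were higher in Notch1+ cells at P0 (7 of 10 tested, with 1 lower, and sums of 41319.9 to 79659.7 against 5211 to 6892) and at E14 (6 of 10, with none lower, and sums of 14820 to 18781 against 3752 to 5460.4). At P0 photoreceptor genes were lower in Notch1+ cells (4 of 5 tested, sums of 2313 to 3874 against 4436 to 11077), as were amacrine and horizontal cell genes (5 of 9, 3064 to 4006 against 5674 to 7324). Beside the lower dorsoventral genes at E14, 1 of 5 ciliary margin genes (Cdo1) and 2 of 6 tested lens genes (Crygb and Crygd) were also lower, with sums of 917 to 1344 against 2105 to 2412 and of 845 to 869 against 1238 to 5364. The part of these cells and of handling in the BMP results was not tested, and fewer cells of a type cannot be told apart from less RNA per cell.

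The probes whose log2 values ran most like those of the members over the 14 arrays were taken as a description, 3 for each of the 9 tested probes. For Bmpr1a probe 1 they were Brpf1 (r = 0.92), Trmt10a (r = 0.90) and Mfng (r = 0.89), a glycosyltransferase that modifies Notch. For Bmpr1b they were Fadd, Ccnd3 and Wdr86 (r = 0.93 each), and for Bmp7 Rlbp1 (r = 0.95), Afmid and Chd5 (r = 0.94 each). The uncertain Bmpr2 probe ran most like Mms22l (r = 0.92), Fasn (r = 0.88) and Tmem183a (r = 0.87). For the second Bmpr1a probe none of these appeared, and its nearest was 1810012N18Rik (r = 0.85). The arrays of a group share stage, sample type and scan day, and these values carry no test.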

How the data were processed

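For 38880 spots on each of 14 arrays, the deposited scanner files hold a foreground and a local background intensity in scanner units, with no normalization between arrays. The deposited value table holds log2 values, which match the background-subtracted intensity, with values under 1 set to 1, times a single factor per array; how the factor was chosen is not stated. It was used as an alternative. The authors' own comparisons stand in supplementary tables and were not used. The genome build and aligner of the probes are not given in the sources used here.

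Probes were named through the accession on the array (22987), a gene number in the supplementary tables of the study (443) or the symbol there (233), with RefSeq names. Intensities were corrected by normexp with an offset of 50, quantile normalized and taken to log2, with limma 3.58.1 in R 4.3.3. Above background means a foreground median more than 2 background SDs over the background median, and the 13683 probes so on at least 3 arrays were tested. One limma model (lmFit and eBayes) of the 4 group means gave all comparisons, with Benjamini-Hochberg adjustment over the tested probes, and was tested on simulated data. No array was left out. The number of arrays limits the precision, and same-numbered arrays of Notch1+ cells and whole retina did not deviate together (r from -0.06 to 0.08), so they were not paired. The study describes the samples as independent biological replicates.

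Genes, pathway lists and marker lists were chosen with earlier results of these data known. Every member probe is named; from each pathway list at most 4 called genes with the largest difference per comparison are named, with 1 probe per gene (the highest mean), and the genes above background on no array, of which some are not reported here. Alternatives changed the background correction, scaling, filter, covariates, arrays and test; scaling over all mouse probes was added after seeing the data.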

Additional observations from a re-analysis of the deposited data

Results flagged for a closer look

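Of 18 groups of 4 arrays (9 tested probes at P0), 3 held an array far from the other 3, by Dixon's ratio of the gap to the whole range; chance gives about 1 in 20. They were Smad1 in P0 Notch1+ replicate 2 (ratio 0.88, high, and not above background there), Smad5 in P0 Notch1+ replicate 3 (0.87, high) and Smad6 in P0 whole retina replicate 1 (0.88, high). With that array left out for its own gene, none of these genes was called in any comparison.

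The gap between Notch1+ cells and whole retina changed between the stages for 2 genes of the dorsoventral list by the test of the interaction itself. For Tbx5 the E14 difference was lower than the P0 difference by -1.76 (SE 0.37, adjusted p = 0.028) and for Aldh1a3 by -1.86 (SE 0.36, adjusted p = 0.019). The call of Tbx5 was lost without E14 Notch1+ replicate 2 (-1.77, adjusted p = 0.062) or 3 (-1.59, adjusted p = 0.056) or E14 whole retina replicate 1 (-1.65, adjusted p = 0.079) or 3 (-1.73, adjusted p = 0.068), and that of Aldh1a3 without E14 whole retina replicate 3 (-1.69, adjusted p = 0.052). Scan day separated the stages and, at P0, the sample types.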

How the results depend on the processing

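Calls of Bmpr1a probe 1 at P0 and of Bmpr1b between whole retinas held best: the first was lost only with scaling to the median of all mouse probes, the second under no alternative. At E14 the count of 0 called among the 9 tested probes became 1 by the methods' t-test, unadjusted and after Benjamini-Hochberg adjustment alike. At P0 the count of 2 became 1 with the re-dip mark, with the compared groups alone and by the methods' t-test after adjustment. It became 3 with cyclic loess (2 higher, 1 lower), with the median or the 75th percentile of the probes above background on every array (3 higher) and with the median of all mouse probes, where all 3 were lower (Smad1, Bmp7 and Smad6). Between the stages in Notch1+ cells the count of 2 became 1 with plain background subtraction with a floor of 50, with no background subtraction, with the median or the 75th percentile of the probes above background on every array, with the filter of all arrays of 1 group, with the re-dip mark and by the methods' unadjusted t-test, and 0 with cyclic loess, with the compared groups alone and by that t-test after adjustment. Without a filter the count in Notch1+ cells became 3. Between whole retinas the count of 2 became 4 without a filter and by the methods' unadjusted t-test. It became 3 with no background subtraction, with either scaling to the probes above background on every array, with cyclic loess and with the filter of all arrays of 1 group. It became 1 with the compared groups alone and by that t-test after adjustment. The replicate block gave 0 in Notch1+ cells and 1 in whole retina between the stages, and it changed no other count of member calls; same-numbered arrays share only a number (r from -0.06 to 0.08). Leaving out 1 array at a time, the counts ran from 1 to 3 at P0, 0 to 2 between the stages in Notch1+ cells, 1 to 3 between whole retinas and 3 to 5 across the 4 groups. The methods' t-test was not run for the change between stages. Over all tested probes the counts ran from 138 to 2368 at E14 (808 as reported), 1231 to 5235 at P0 (2694), 431 to 4444 between the stages in Notch1+ cells (1518), 1061 to 4116 between whole retinas (1954), 194 to 703 for the change between stages (338) and 3539 to 10107 across the groups (4697) over the settings, and down to 462, 2082, 806, 1261, 138 and 3967 on leaving out 1 array; the lowest count at P0 came with the re-dip mark.

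The sign of differences turned as follows; none of these was called at first except Gdf10 and Fstl1, and the cause was not tested. With plain background subtraction it turned for Bmp4 (0.056) between the stages in Notch1+ cells. Without background subtraction it turned for Smad6 (0.044) at E14. With the median of the probes above background on every array it turned for Smad6 (0.081) at E14, and for Gdf10 (0.13), Bmpr1b (0.15), Bmp4 (0.30) and Smad6 (0.037) at P0, and for Smad6 (-0.26) between the stages in Notch1+ cells, and for Bmp4 (-0.0088), Bmpr1a probe 2 (-0.19) and Bmp7 (-0.21) in the change of the difference between stages. With their 75th percentile it turned for Smad6 (0.050) at E14, and for Gdf10 (0.21), Bmpr1b (0.24), Bmp4 (0.39), Smad6 (0.13) and Bmp7 (0.087) at P0, and for Smad6 (-0.33) between the stages in Notch1+ cells, and for Bmp4 (-0.13), Bmpr1a probe 2 (-0.31), Smad6 (-0.076) and Bmp7 (-0.33) in the change of the difference between stages. With the median of all mouse probes it turned for Bmpr2 (-0.0019) at E14, and for Bmpr1a probe 2 (-0.036) and Fstl1 (-0.20) at P0, and for Bmpr1a probe 1 (0.19) between the stages in Notch1+ cells, and for Smad5 (0.33) in the change of the difference between stages. With the 75th percentile of all mouse probes it turned for Smad6 (0.045) at E14, and for Smad6 (-0.0034) between the stages in Notch1+ cells, and for Smad5 (0.18) in the change of the difference between stages. In the value table of the authors it turned for Bmpr1a probe 1 (0.011) between the stages in Notch1+ cells, and for Smad5 (0.25) and Bmp7 (-0.21) in the change of the difference between stages. With a term for the re-dip mark it turned for Bmpr1b (0.040) and Smad1 (0.061) at P0, and for Smad5 (0.18) and Bmp7 (-0.043) in the change of the difference between stages. Leaving out 1 array at a time, ranges spanned 0 at E14 for Smad5 -0.66 to 0.23, Bmp4 -0.17 to 0.29 and Smad6 -0.16 to 0.13. They did so at P0 for Bmpr1b -0.37 to 0.020. They did so between the stages in Notch1+ cells for Bmpr1a probe 1 -0.73 to 0.078, Smad5 -0.089 to 0.63, Bmp4 -0.39 to 0.069 and Smad6 -0.019 to 0.25. They did so between whole retinas for Smad5 -0.22 to 0.67. They did so in the change of the difference between stages for Smad5 -0.44 to 0.46, Bmpr1a probe 2 -0.040 to 0.34 and Bmp7 -0.062 to 0.18.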
